A study of Mus musculus with 32 samples.

Results

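The data described here are the 4 arrays that hold the first hour of the Leydig cell response to luteinizing hormone (LH), out of 32 in the series. They were chosen by their labels alone: the Leydig immunoprecipitates (IPs) taken 1 h after LH (LH 1 h, n = 2) and those taken after the GnRH antagonist acyline without LH (acyline, n = 2). All 4 came from testes of Cyp17iCre: RiboTag mice, in which the Cre recombinase switches on an HA-tagged ribosomal protein, so that an anti-HA antibody pulls down polysomes, and the mRNA on them, from the tagged cells. Both groups had been given acyline for 4 days, and the LH 1 h mice then had 1 injection of purified human LH. The other Leydig IPs, from saline-treated mice (n = 3) and from mice killed 4 h after LH (n = 2), entered the same fit. They are used for levels in other mice that had no acyline and for the later time. A later comparison also uses Sertoli IPs, from AMH-Cre: RiboTag mice. These mice had saline, acyline, acyline with follicle-stimulating hormone for 1 h or 4 h, the GnRH antagonist cetrorelix, or cetrorelix with testosterone. The study describes its mice as adult, without an exact age in the sources used here, which also do not say whether an array held 1 mouse or a pool. By the study's own staining the tag also appeared in scattered cells inside the tubules of the Cyp17iCre: RiboTag line.

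LH is the pituitary hormone that drives Leydig cells. Its receptor couples to adenylyl cyclase, cyclic AMP activates protein kinase A, and the kinase phosphorylates CREB, which binds the cyclic AMP response element (CRE) in promoters. Genes that answer such a signal without new protein synthesis are called immediate early genes: the Nr4a orphan receptors, Fos and Jun family members, Egr factors, and many brakes on signalling such as Rgs2, Dusp1 and Sik1. Acyline blocks the pituitary drive for LH secretion. The comparison asks which mRNAs on Leydig polysomes differed 1 h after that injection.

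Whether CRE matches act in these data was not tested. The promoters of 7 genes are printed here to show where such matches lie or are missing. Of these 6 were picked, with values and matches known, as genes with a large first-hour difference, passed or not, and a CRE match, so they are examples and not a sample. Gadd45b and Cxcr4, with differences of 1.81 and 1.41, had a window without a CRE match and are not printed. Each run is the 240 bases before the first transcribed base (RefSeq, build GRCm38.p6), read 5′ to 3′ on the gene's own strand. Capitals mark a full CRE (TGACGTCA), a CRE core outside a full site (TGACG, or CGTCA where it lies on the other strand) or a TATA box (TATAAA within 50 bases of the start). Where a gene had several windows, the one with most CRE matches is shown.
Nr4a1, chr15:101266606-101266845, + strand: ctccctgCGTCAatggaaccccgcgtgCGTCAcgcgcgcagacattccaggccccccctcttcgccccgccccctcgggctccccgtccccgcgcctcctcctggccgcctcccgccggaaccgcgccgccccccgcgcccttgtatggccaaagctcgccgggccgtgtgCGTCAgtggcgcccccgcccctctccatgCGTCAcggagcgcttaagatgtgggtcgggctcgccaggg
Btg2, chr1:134079156-134079395, - strand: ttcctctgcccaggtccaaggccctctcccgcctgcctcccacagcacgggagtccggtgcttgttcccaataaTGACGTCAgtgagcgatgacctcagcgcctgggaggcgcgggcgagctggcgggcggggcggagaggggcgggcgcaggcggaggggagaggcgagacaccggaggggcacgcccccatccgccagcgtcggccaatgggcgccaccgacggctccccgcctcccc
Dusp1, chr17:26508473-26508712, - strand: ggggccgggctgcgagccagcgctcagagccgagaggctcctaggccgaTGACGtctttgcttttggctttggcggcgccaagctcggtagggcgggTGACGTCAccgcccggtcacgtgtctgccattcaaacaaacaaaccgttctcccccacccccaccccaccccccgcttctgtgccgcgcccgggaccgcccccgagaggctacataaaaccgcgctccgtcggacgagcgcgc
Errfi1, chr4:150854830-150855069, + strand: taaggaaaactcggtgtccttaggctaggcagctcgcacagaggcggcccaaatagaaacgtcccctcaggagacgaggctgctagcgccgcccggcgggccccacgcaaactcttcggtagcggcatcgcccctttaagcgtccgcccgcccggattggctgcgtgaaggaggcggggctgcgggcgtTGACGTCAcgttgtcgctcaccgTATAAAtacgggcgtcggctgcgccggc
Fos, chr12:85473650-85473889, + strand: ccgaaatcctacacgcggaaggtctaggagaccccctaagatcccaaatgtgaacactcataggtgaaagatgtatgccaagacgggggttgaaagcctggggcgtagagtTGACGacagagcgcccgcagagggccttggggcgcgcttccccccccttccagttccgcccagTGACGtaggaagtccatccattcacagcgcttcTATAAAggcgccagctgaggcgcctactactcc
Rgs2, chr1:144004150-144004389, - strand: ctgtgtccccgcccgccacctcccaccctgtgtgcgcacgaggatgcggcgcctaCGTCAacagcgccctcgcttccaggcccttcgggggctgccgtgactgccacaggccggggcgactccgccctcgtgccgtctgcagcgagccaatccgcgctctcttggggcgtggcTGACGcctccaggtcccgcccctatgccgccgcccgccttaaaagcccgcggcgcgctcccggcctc
Amotl2, chr9:102717564-102717803, + strand: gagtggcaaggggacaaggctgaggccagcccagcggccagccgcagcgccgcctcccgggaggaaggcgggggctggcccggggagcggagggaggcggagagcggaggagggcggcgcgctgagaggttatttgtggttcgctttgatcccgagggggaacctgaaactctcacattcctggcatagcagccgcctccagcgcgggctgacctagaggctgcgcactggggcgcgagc

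Btg2, Dusp1 and Errfi1 each held 1 full CRE, which begins at base -166, -143 and -51 relative to the first transcribed base. Nr4a1 held 4 CRE cores, all on the other strand, and Fos and Rgs2 held 2 each. Over all tested genes with a window 3.21% held a full CRE and 29.9% a core. The Amotl2 stretch, shown because Amotl2 was 1 of the 2 probe sets that passed the test, held neither a full CRE nor a core. For Sik1, the other, no sequence is shown.

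**Figure D1:**
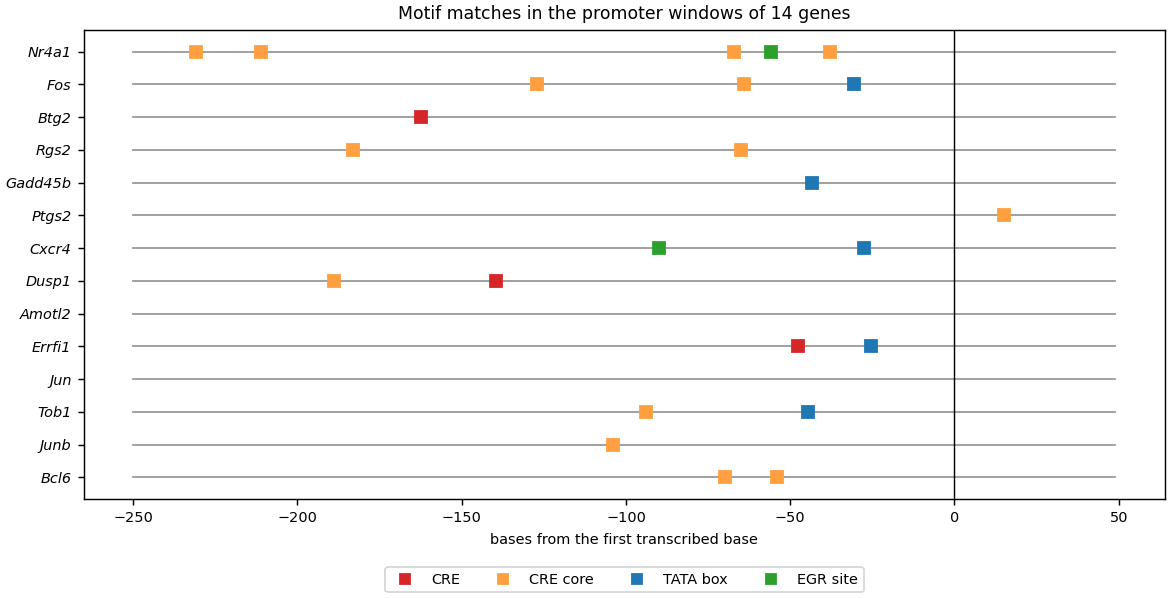
Places of motif matches in the promoter windows of 14 genes, from 250 bases before to 50 after the first transcribed base (x axis, in bases; 0 is the first transcribed base); each row is a gene and each square a match. Full CREs lie in Btg2, Dusp1 and Errfi1, CRE cores in 7 other rows as well as in Dusp1, and the rows of Amotl2 and Jun are empty.

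The labelled cell type was checked in arrays that the LH comparison does not use, the 3 saline IPs against their 3 inputs (RNA of the whole testis). Over 24705 probe sets, 11% were enriched at least 2-fold in the IPs at an adjusted p below 0.05 (limma) and 10.7% were depleted. All 9 Leydig markers that could be tested were enriched, among them Star (10.1-fold), Hsd17b3 (9.15-fold), Cyp11a1 (8.34-fold) and Cyp17a1 (3.32-fold). Hsd11b1 stayed below the signal filter, and the LH receptor itself was not analysed here. Of 18 spermatid markers 16 were depleted, and of 11 macrophage markers 6 were depleted and none was enriched. Of 19 Sertoli markers 5 were enriched and 0 were depleted, so most were called in neither direction.

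The same lists were read on the 4 arrays in question. The mean log2 signal over the 9 Leydig markers was 12.09 and 12.20 on the acyline arrays and 12.24 and 12.13 on the LH 1 h arrays, so that the groups overlapped. For the 18 spermatid markers it was 10.39 and 10.49 after acyline, and 10.23 and 10.51 after LH. The other lists also overlapped between the groups, except macrophages: Sertoli markers were at 9.21 and 8.996, then at 9.26 and 8.96, spermatogonia and spermatocyte markers at 8.67 and 8.52, then at 8.50 and 8.71, myoid markers at 7.86 and 7.73, then at 7.79 and 7.82, and endothelial markers at 6.23 and 6.26, then at 6.32 and 6.22. The 11 macrophage markers were at 6.23 and 6.16 after acyline and at 6.11 and 6.01 after LH. None of the 18 spermatid markers was higher on LH 1 h replicate 1 than on replicate 2, while 17 of 19 Sertoli markers were. Over all tested probe sets 53.7% were higher on replicate 1. Among single markers, Lyz2, a macrophage lysozyme, was at 5.95 and 6.04 after acyline and at 5.52 and 5.28 after LH, at the low end of the signal range. The spermatid protamine Prm1 was at 11.10 and 11.23, then at 10.91 and 10.95. Both lay lower on both LH arrays, which most members of their lists did not. Of 11 macrophage markers 4 were below and 1 above, with differences from -0.60 to 0.22. Of 18 spermatid markers 4 were below and 0 above, with differences from -0.32 to 0.20. The part of these markers in the results below was not tested. In such tissue arrays fewer cells of a type and less RNA per cell cannot be told apart, and a change in polysome-bound mRNA can come from its amount or its loading.

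Of 24461 probe sets tested across the 9 Leydig IPs, 2 were higher after LH (0.00818%) and 0 lower (0%), at an adjusted p below 0.05 and at least 1.5-fold (limma moderated contrast, Benjamini-Hochberg). They were Sik1 and Amotl2. Without the adjustment, 210 probe sets were higher (0.859%) and 85 lower (0.347%) at p below 0.05 and 1.5-fold, of which 61 and 16 carried a single gene symbol. The other 149 and 69 have no single symbol here, like 7583 of all tested probe sets, and these may include control probe sets of the array, which were not told apart. They enter the shares and the adjusted p-values given over 24461 probe sets. Of the 16878 tested probe sets with a single symbol, 0.361% were higher and 0.0948% lower by the same unadjusted rule. Over the probe sets with a single gene symbol alone, 4 were higher, the same pair with Nr4a1 (adjusted p = 0.0306) and Tob1 (adjusted p = 0.0336), and 0 lower. Both LH arrays lay above both acyline arrays for 17.2% of all tested probe sets and below both for 19.8%. The counts of list members above or below, given further on, are to be read beside these shares. The labels do not state whether the arrays of a group came from separate mice, so p-values cover only the array-to-array spread, which may be technical.

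Sik1, on chromosome 17, encodes salt-inducible kinase 1, which keeps the CREB coactivators of the Crtc family out of the nucleus and so acts as a brake on cyclic AMP-driven transcription. Its log2 signal was 7.74 and 7.76 after acyline and 10.12 and 9.52 after LH. Both LH arrays were far above both acyline arrays, and the acyline arrays were close to the saline ones, at 7.51, 7.64 and 7.66. The difference was 2.07 (SE 0.18), a 4.2-fold rise (adjusted p = 0.0402). After 4 h Sik1 was still at 9.49 and 9.32. In the saline arrays the IP held 0.529 times the input level.

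Amotl2, on chromosome 9, encodes angiomotin-like 2, a junction-associated protein that binds the Hippo pathway coactivator Yap1. It was at 8.63 and 8.51 after acyline and at 9.997 and 9.70 after LH, and the groups did not overlap. The difference was 1.28 (SE 0.12), a 2.43-fold rise (adjusted p = 0.0448). Unlike Sik1, it also stood higher after acyline than in the 3 saline arrays of other mice (7.60, 7.72 and 7.57), by 0.94 in the same fit. At 4 h it was at 9.42 on both arrays.

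The number of calls depended on the arrays in the fit. Leaving out LH 1 h replicate 1 left Sik1 alone, leaving out replicate 2 gave 14 probe sets, and leaving out any of the other 7 arrays gave 0, although in these fits the difference of Sik1 stayed between 1.77 and 2.37 and that of Amotl2 between 1.13 and 1.43. The 14 were Amotl2, Btg2, Ccrl2, Dusp1, Egr1, Enc1, Errfi1, Fos, Gadd45b, Ier2, Nr4a1, Ptgs2, Rgs2 and Sik1, each then resting on 1 LH array.

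**Figure D2:**
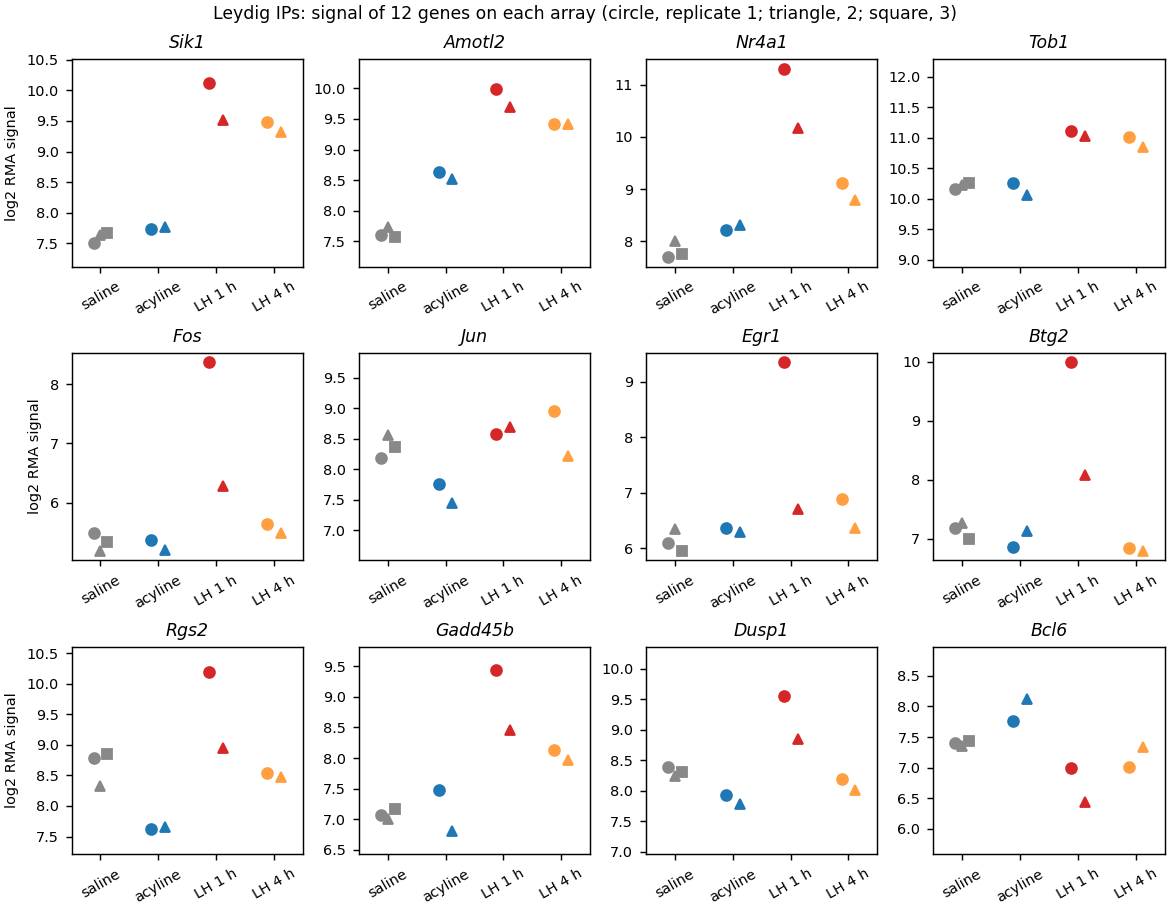
Log2 RMA signal (y axis) of 12 genes on each of the 9 Leydig IPs, grouped by treatment (x axis); each point is an array and its shape the replicate number. The 2 LH 1 h arrays of Sik1 (10.12 and 9.52) and Amotl2 (9.997 and 9.70) lie close together, whereas those of Fos (8.38 and 6.28) and Egr1 (9.35 and 6.72) lie far apart.

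Immediate early genes had some of the largest differences, and for many of them the 2 LH arrays were far apart. Nr4a1, the orphan receptor Nur77 that binds promoters of steroidogenic genes, was at 8.21 and 8.31 after acyline and at 11.31 and 10.17 after LH. All of its LH values were above its acyline values, and the difference was 2.48 (SE 0.31, adjusted p = 0.185, not passed). Its relatives overlapped between the groups, as Nr4a2 was at 5.63 and 5.81 after acyline and at 6.13 and 5.39 after LH, and Nr4a3 was between 5.12 and 5.35 on the 4 arrays. Both relatives were at the low end of the signal range, so the overlap does not show that they failed to respond. Of the 3 receptors 0 passed the test, and the list's median difference was 0.04.

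Of 15 AP-1 family members none passed, 4 had both LH arrays above both acyline arrays and 0 below, and the median was 0.04. Over all tested probe sets the shares were 17.2% above and 19.8% below. AP-1 is the dimer of Fos and Jun proteins. Fos was at 5.37 and 5.19 after acyline, at the low end of the signal range, and at 8.38 and 6.28 after LH. This gave a difference of 2.05 (SE 0.52, adjusted p = 0.738). Jun was at 7.75 and 7.45, then at 8.58 and 8.70, so here the LH arrays were alike and replicate 2 was the higher. The acyline level of Jun was below the 3 saline arrays (8.19, 8.56 and 8.36), and both LH values were just above them. Junb was at 6.35 and 6.68 after acyline and at 7.80 and 7.02 after LH. Fosb, often induced beside Fos, was at 6.10 and 6.41, then at 6.27 and 6.20, with overlapping groups.

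Among 36 other immediate early transcription regulators 0 passed, while 13 were above and 10 below on both LH arrays (median 0.04). Egr1, a zinc finger factor of the serum and growth factor response, showed a wide gap between LH arrays, at 9.35 and 6.72 against 6.36 and 6.30 after acyline. Nearly the whole of its difference of 1.71 (SE 0.66, adjusted p = 0.823) thus came from replicate 1. Ier2 had the same form, at 7.75 and 6.40 after LH and 6.30 and 6.17 after acyline. Bhlhe40, a repressor that also belongs to the circadian clock, was at 8.72 and 7.92 against 6.94 and 6.98 (difference 1.36, SE 0.25, adjusted p = 0.538). Csrnp1 was even across the LH arrays, at 8.44 and 8.42 against 7.93 and 7.90, and Cebpa was at 7.98 and 8.14 against 7.42 and 7.64. Id3, an inhibitor of helix-loop-helix factors, was at 6.72 and 6.32 against 5.81 and 6.15.

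The 30 immediate early genes that are not transcription factors gave 0 calls, 11 members above and 4 below on both arrays and a median of 0.05. Btg2, which slows proliferation and recruits mRNA deadenylases, was at 6.86 and 7.13 after acyline and at 9.99 and 8.08 after LH (difference 2.04, SE 0.48, adjusted p = 0.679). Ptgs2, the inducible cyclooxygenase, was at the low end of the signal range after acyline (5.21 and 4.80) and at 7.43 and 5.53 after LH. Errfi1, an inhibitor of the EGF receptor, was at 9.31 and 9.38, then at 10.81 and 10.21 (difference 1.17, SE 0.19, adjusted p = 0.493). Pim3, a serine/threonine kinase, was at 9.31 and 9.14, then at 10.15 and 9.85. Zfp36, which destabilises AU-rich mRNAs, was at 6.90 and 6.88, then at 8.02 and 7.28. Trib1, a pseudokinase, ran the other way, at 6.96 and 6.87 after acyline and 6.55 and 6.35 after LH.

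**Figure D3:**
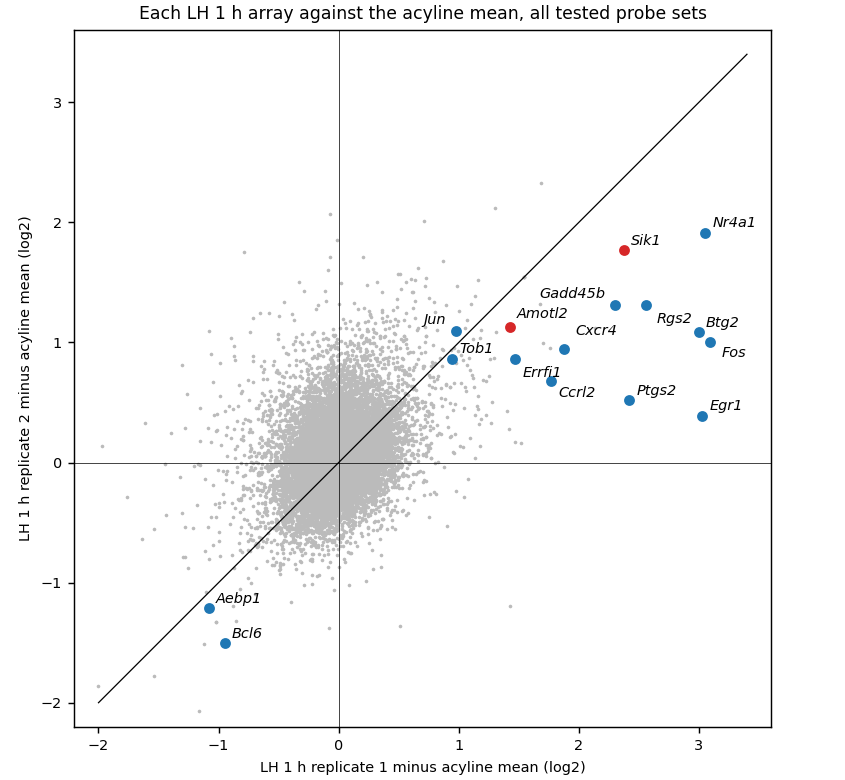
Log2 signal of LH 1 h replicate 1 (x axis) and replicate 2 (y axis), each minus the acyline mean, for all tested probe sets (grey); red marks Sik1 and Amotl2, blue other named genes, and the diagonal equal values. Most of the labelled genes, which were picked and are not a sample, lie below the diagonal, that is, further from acyline on replicate 1. Jun lies just above it and Tob1 close to it.

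Over all tested probe sets the SD of the log2 difference between the 2 LH 1 h arrays was 0.300, beside 0.245 for the acyline pair, 0.239 to 0.249 for the saline pairs and 0.331 for the LH 4 h pair. A single LH 1 h array set against a single acyline array gave 0.252 to 0.312. The spread within the LH pair was therefore within the range of the spread between the groups. Replicate 1 also had the lower spermatid markers given above, whose part in these values was not tested.

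Components that carry or dampen the cyclic AMP signal were read from 24 measured genes, of which Sik1 alone passed. On both LH arrays 3 were above and 13 below, beside 17.2% and 19.8% of all probe sets, and the median was -0.08. The Sik1 targets Crtc2 and Crtc3 were on the lower side. Crtc2 was at 8.18 and 8.36 after acyline and at 8.05 and 7.91 after LH, and Crtc3 was at 8.25 and 8.01, then at 7.65 and 7.59 (difference -0.51, SE 0.20, adjusted p = 0.823). The other salt-inducible kinases were flat, Sik2 between 8.54 and 8.63 and Sik3 between 8.56 and 8.71 on the 4 arrays. Crem, whose promoter gives the short-lived repressor ICER, was at 8.78 and 8.62, then at 8.65 and 9.14. Its single value here cannot separate the isoforms.

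Of 14 cyclic AMP phosphodiesterases, the enzymes that end the signal, none passed, 2 were above and 0 below, and the median was -0.02. Pde4d was at 7.53 and 6.997 after acyline and at 7.49 and 6.94 after LH, and Pde4b at 6.36 and 5.996, then at 6.24 and 5.95. A further Pde4d probe set was higher at 4 h than at 1 h, by 1.77 (SE 0.22, limma adjusted p = 0.0328), and so passed that contrast. Among regulators of G protein signalling 1 gene stood apart: Rgs2, which shortens signalling by Gq-coupled receptors, was at 7.63 and 7.65 after acyline and at 10.20 and 8.95 after LH (difference 1.94, SE 0.34, adjusted p = 0.496). The acyline level of Rgs2 lay below its saline level (8.78, 8.34 and 8.86), and both LH values lay above it. The median of the 11 Rgs genes tested was 0.05 and 0 passed.

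Feedback on MAP kinases had the same shape, with 1 large member among 18. Dusp1, a phosphatase that inactivates p38, JNK and ERK, was at 7.93 and 7.77, then at 9.55 and 8.84 (difference 1.35, SE 0.20, adjusted p = 0.416). Spry4 was at 7.43 and 7.33, then at 7.96 and 7.77, while Dusp6, a phosphatase for ERK, was at 7.92 and 7.68, then at 7.85 and 7.34 with overlap. None of the 18 passed and the median was 0.00. Over 24461 probe sets the median difference was -0.00, so each of these medians lay close to that of all probe sets.

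Growth arrest genes included large differences in both directions. Of 23 tested 6 were above and 9 below on both LH arrays, beside 17.2% and 19.8% of all probe sets. The 3 Gadd45 stress sensors were among the 6. Gadd45b was at 7.47 and 6.81 after acyline and at 9.44 and 8.45 after LH (difference 1.81, SE 0.30, adjusted p = 0.493). Gadd45g was at 8.39 and 7.86, then at 9.18 and 8.76, and Gadd45a at 8.48 and 8.64, then at 9.32 and 8.83. Ddit4, which inhibits mTORC1, was at 8.42 and 8.62, then at 9.75 and 8.92. Bcl6, a transcriptional repressor, was at 7.76 and 8.12 after acyline and at 6.99 and 6.44 after LH, with no overlap (difference -1.23, SE 0.20, adjusted p = 0.493). None of the 23 passed, and the median was -0.07.

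Amotl2 was the single member of its pathway to pass. Of 23 Hippo pathway genes and targets tested 1 passed, 3 were above and 7 below on both arrays, and the median was -0.05. Amotl1 was at 8.34 and 8.33, then at 8.31 and 8.55, and Yap1 at 9.07 and 8.99, then at 9.01 and 8.93. The coactivator's matricellular target Ccn1 was at 6.40 and 6.08 after acyline and at 7.37 and 6.27 after LH, again with a high replicate 1.

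**Figure D4:**
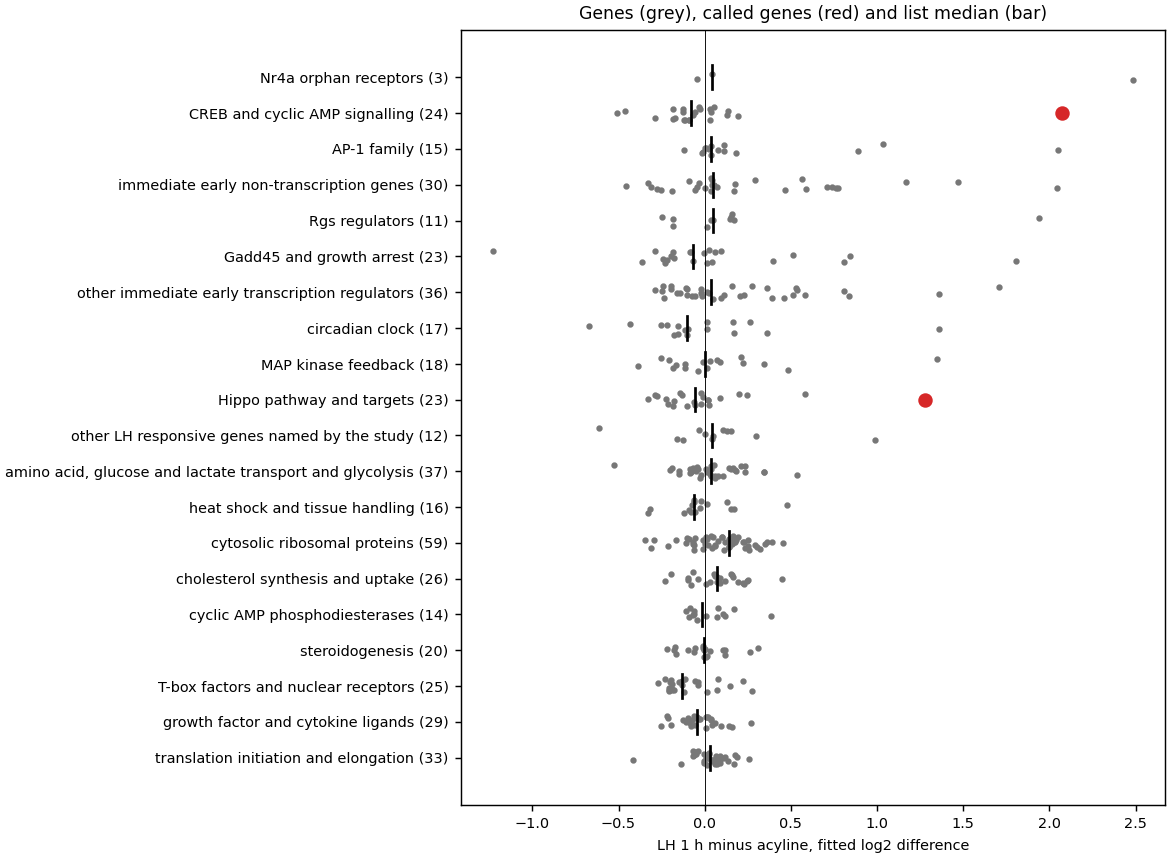
Fitted log2 difference, LH 1 h minus acyline (x axis), for the tested genes of 20 lists (rows, with the number tested); red points passed the test (Sik1 and Amotl2) and the bar is the list's median. The medians lie between -0.13 and 0.14, and Nr4a1 (2.48) lies furthest to the right.

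Genes outside the lists, named here after their values were seen, showed a similar range but are not a sample. Of the 210 probe sets higher at unadjusted p (limma) and 1.5-fold, 80 were higher on LH 1 h replicate 1 than on replicate 2. Among the 61 of them with 1 symbol, 36 were. Atad2 (7.61 and 8.42 after LH) and Tex15 (8.05 and 9.02) were higher on replicate 2. Tob1, an antiproliferative relative of Btg2, was at 10.26 and 10.07 after acyline and at 11.11 and 11.03 after LH, an even pair (difference 0.90, SE 0.11, adjusted p = 0.185). Enc1, an actin-binding protein of the Kelch family, was at 9.49 and 9.44, then at 10.67 and 10.16. The chemokine receptor Cxcr4 was at 7.29 and 7.19, then at 9.12 and 8.19, and the atypical receptor Ccrl2 at 5.75 and 5.92, then at 7.60 and 6.51. Alas1, the first enzyme of heme synthesis, was at 11.43 and 11.26, then at 12.19 and 12.22, and the potassium channel Kcnk5 at 7.33 and 7.44, then at 8.46 and 8.20. Aebp1 was at 8.76 and 9.36 after acyline and at 7.98 and 7.85 after LH, but its saline arrays ran from 8.25 to 9.65.

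No gene of steroid synthesis passed the test at 1 h. Of 20 genes tested 0 passed, 1 was above and 3 below on both arrays, and the median was -0.00. Star, which carries cholesterol into mitochondria, was at 11.91 and 12.13 after acyline and at 12.31 and 11.94 after LH, with overlapping groups (95% interval of the difference, -0.29 to 0.50). Cyp11a1, the side-chain cleavage enzyme, was at 12.05 and 12.21, then at 11.95 and 11.96 (interval -0.54 to 0.19). Cyp17a1 was at 13.24 and 13.28, then at 13.34 and 13.18 (interval -0.28 to 0.27). Scarb1, the receptor for high-density lipoprotein, was at 10.16 and 9.98 after acyline, far below its saline level of 12.11, 11.95 and 12.21, and stayed at 10.14 and 9.99 after LH. Hsd3b1 was at 11.33 and 12.01, then at 12.05 and 11.90. Cholesterol synthesis and uptake also gave 0 of 26, with 11 above, 3 below and a median of 0.07.

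A further list gave 0 of 12 in the first hour. It included genes that the study reported as LH-responsive from these samples, several of them at its later time, but was not limited to them. The count concerns the first hour only and rests on adjusted p-values. The study's stated rule between IPs was a contrast p below 0.05 with 1.5-fold, and it names no adjustment. At unadjusted p (limma) and 1.5-fold 1 member was higher and 1 lower, beside 0.859% and 0.347% of all probe sets. Of these genes the study also followed Aqp2, Fetub, Fgfr2 and Fgfr4 by qRT-PCR, so the 0 does not speak against its report. The water channel Aqp2 was at 8.91 and 8.77 after acyline and at 9.12 and 8.49 after LH. S1pr3, a sphingosine-1-phosphate receptor, was at 8.36 and 8.26, then at 9.56 and 9.04 (difference 0.99, SE 0.39, adjusted p = 0.823), but the saline arrays spanned 8.01 to 9.44. Fetub was at 11.50 and 12.12, then at 11.38 and 11.01.

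Cytosolic ribosomal proteins had small differences, most of them upward. Of 59 tested 33 were above and 5 below on both LH arrays, against 17.2% and 19.8% of all probe sets, 0 passed the test, and the median was 0.14. This was seen on each LH array, with a median of 0.12 on replicate 1 and 0.13 on replicate 2 relative to the acyline mean. The list was also higher after acyline than in saline, by a median of 0.17. Its mean log2 signal was 10.07, 9.98 and 9.99 in saline, 10.20 on each acyline array and 10.29 on each LH 1 h array. Rps4x was at 9.82 and 9.96 after acyline and at 10.30 and 10.39 after LH (difference 0.45, SE 0.14, adjusted p = 0.738), and Rps18 at 11.88 and 11.68, then at 12.14 and 12.20. Many of these genes have several probe sets and near-identical pseudogene copies, so single values are uncertain. Of the 47 with a promoter window 13 (27.7%) began with 5 pyrimidines, beside 4.97% of all tested genes. Only the first 5 bases of the annotated start were read, so a start placed a few bases off is missed. The study describes ribosomal protein mRNAs as marked by such a tract, so 27.7% need not be their true share. Translation initiation and elongation factors had 9 of 33 above and 4 below, and a median of 0.03.

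The remaining lists gave 0 calls each, and their counts stand beside the same 17.2% above and 19.8% below over all probe sets. Growth factor and cytokine ligands had 1 of 29 above and 4 below (median -0.04). T-box factors and nuclear receptors had 4 of 25 above and 9 below (median -0.13), and circadian clock genes 4 of 17 above and 6 below (median -0.11). Transport and glycolysis genes had 11 of 37 above and 4 below (median 0.03). In it Txnip, which restrains glucose uptake, was at 12.42 and 12.50 after acyline and at 12.07 and 11.80 after LH (difference -0.53, SE 0.12, adjusted p = 0.634). Heat shock and handling genes had 3 of 16 above and 2 below (median -0.06), with Hspa1a at 7.23 and 7.08, then at 7.68 and 7.58.

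The fate of these values by 4 h was tested directly, LH 4 h against LH 1 h, a contrast that shares the LH 1 h arrays with the one above. It gave 39 probe sets lower (0.159%) and 10 higher (0.0409%) at 4 h. Neither Sik1 nor Amotl2 was among them, and none of the immediate early transcription factors was. Many values were lower at 4 h without passing: Btg2 was at 6.84 and 6.79 and Fos at 5.63 and 5.48, both near their acyline values, and Nr4a1 was at 9.11 and 8.79, still above its own (difference from 1 h -1.79, SE 0.31, adjusted p = 0.0678). Dusp1 was at 8.19 and 8.002 (-1.10, SE 0.20, adjusted p = 0.0714). Bhlhe40, at 8.78 and 8.50, and Tob1, at 11.01 and 10.84, had stayed near their 1 h values.

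The listed genes that passed between the times had not passed at 1 h. Gem, a small GTPase of the immediate early list, was at 8.63 and 8.10 after acyline, 8.20 and 8.61 at 1 h, and 6.30 and 6.22 at 4 h, where it fell by 2.15 on the log2 scale (SE 0.18, adjusted p = 0.00994). Gem, Amotl2 and the coactivator Vgll3 were also among the 8 probe sets higher after acyline than in saline (0.0327%, beside 27 lower, 0.11%). Vgll3 was at 10.60 and 10.85, then 10.49 and 10.40, then 9.29 and 9.12, and the T-box repressor Tbx3 at 9.26 and 9.46, then 9.21 and 9.25, then 8.15 and 8.06. Vgll3, Tbx3 and Txnip fell by 1.25, 1.13 and 1.03 on the log2 scale (adjusted p = 0.0328 each), Txnip to 10.94 and 10.86. The lactate transporter Slc16a3 rose, from 8.90 and 8.40 at 1 h to 11.67 and 11.03 at 4 h (difference 2.70, SE 0.28, adjusted p = 0.0227), after 8.23 and 7.998 with acyline. Kit, listed with germ cells but 9.26-fold enriched in these IPs, fell by 0.82 from 12.27 and 12.28 to 11.40 and 11.50 (SE 0.10, adjusted p = 0.0328). Leaving out LH 4 h replicate 1 gave 0 calls and leaving out its replicate 2 gave 169 in each direction.

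The first-hour response was set beside that of Sertoli cells to follicle-stimulating hormone (FSH), which also acts through a cyclic AMP-coupled receptor. These were IPs of AMH-Cre: RiboTag mice after acyline (n = 2) and 1 h after FSH that followed acyline (n = 2), and the difference between the 2 responses was tested as an interaction over all 24 IPs. That fit took its spread also from the other Leydig IPs and from AMH-Cre IPs after saline, FSH for 4 h, the GnRH antagonist cetrorelix, and cetrorelix with testosterone. Of 25399 probe sets 3 differed (0.0118%), all with the larger value for LH, though 0 did with the replicate block or without any 1 of 4 arrays (Leydig acyline replicate 2, Sertoli acyline replicate 1, or either FSH array) and 18 did without LH 1 h replicate 2: Nr4a1 by 2.43 (SE 0.32), Amotl2 by 1.59 (SE 0.20) and Enc1 by 1.16 (SE 0.17), at adjusted p of 0.00935, 0.00935 and 0.0271. In Sertoli IPs Nr4a1 was at 8.08 and 7.90 after acyline and at 7.999 and 8.10 after FSH, Amotl2 at 8.73 and 8.29, then at 8.19 and 8.21. Sik1 missed the threshold, with a difference of 2.17 (adjusted p = 0.0823), as did Gadd45b at 1.87 (adjusted p = 0.0823) and Tob1 at 0.82 (adjusted p = 0.0823). FSH itself gave 0 calls in its own cells (limma, with 332 probe sets higher and 67 lower at unadjusted p and 1.5-fold). The FSH mice had acyline for 3 days, against 4 days for the LH mice. Hormone, cell type, mouse line and length of acyline treatment changed together in this contrast and cannot be told apart.

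**Figure D5:**
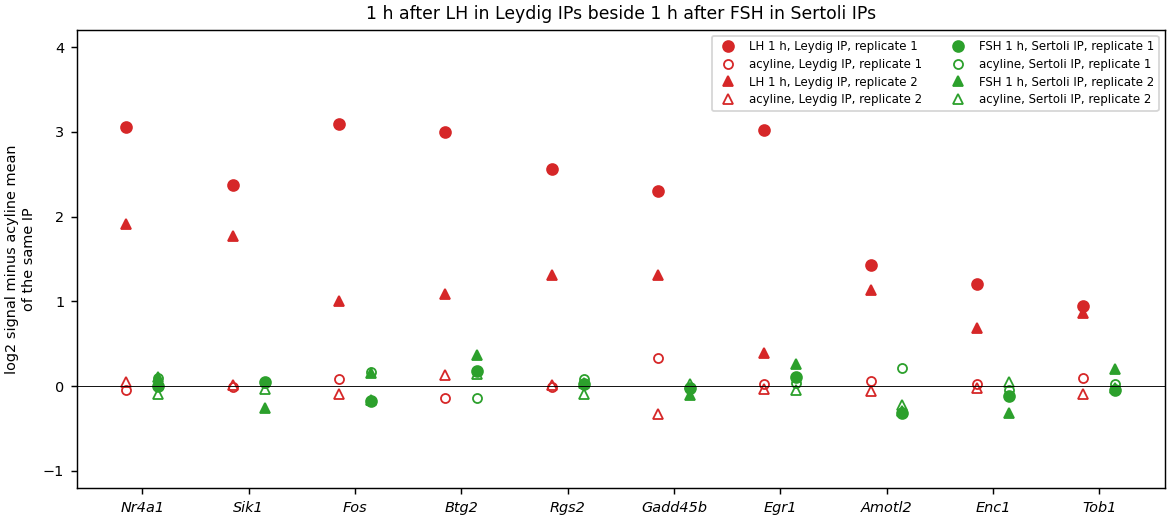
Log2 signal minus the acyline mean of the same kind of IP (y axis) for 10 genes, with Leydig IPs in red and Sertoli IPs in green; filled points are arrays 1 h after LH or FSH, open points acyline arrays, and the shape is the replicate number. Every filled red point lies above the open red points, while the green points stay near 0.

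In the saline arrays the genes described above were not uniformly enriched in the IP. Those given here had not passed the main test at 1 h, and Gadd45a and Csrnp1 also lay below the 1.5-fold threshold. Gadd45a (4.07-fold), Rgs2 (3.76-fold), Gadd45g (3.42-fold), Ddit4 (2.67-fold), Jun (2.63-fold) and Bhlhe40 (2.25-fold) were enriched in the IP over input. Nr4a1, at 0.39 of the input level, and Csrnp1, at 0.432, were depleted, while Btg2 (1.61-fold) and Dusp1 (1.35-fold) were nearer to the input.

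The promoter motifs were counted over all genes with a window. Here a gene counted if any of its probe sets met the rule. Of 60 genes higher at unadjusted p and 1.5-fold 47 had a window, and 4 of these (8.51%) held a full CRE, beside 3.21% of 12205 tested genes. Tra2a, 1 of the 4, entered through a probe set other than the one read elsewhere, whose difference was 0.25. Zfp319 entered in the same way, with a difference of -0.11 for the probe set read elsewhere. CRE cores outside a full site were in 16 (34%), beside 29.9%. A TATA box was in 8 (17%), beside 2.2%, and the EGR site (GCGTGGGCG or GCGGGGGCG) in 6 (12.8%), beside 6.92%. The AP-1 site (TGAGTCA) was in 0, beside 4.85%, the NBRE (AAAGGTCA), at which Nr4a1 binds, in 1 (2.13%), beside 1.31%, and the CArG box in 1 (2.13%), beside 1.59%. Both strands were read except for the TATA box, and these letters are a description of the windows at genes chosen by the contrast. The 14 windows of lower genes held 0 full CREs and 6 with a core (42.9%).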

How the data were processed

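Polysome-bound RNA of testis was hybridised to Affymetrix Mouse Gene 1.0 ST arrays. The authors normalized the arrays by RMA, per the submitters' processing notes, and deposited log2 values, which summarise each probe set across arrays and were used as given. Of 35556 probe sets 21789 carry a single symbol in GEO's platform annotation, 1621 several, and 12146 are unnamed here. A gene was read from its probe set with the highest mean over the 9 Leydig IPs, except in the promoter counts, where any probe set could bring a gene in.

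Groups came from the labels. Probe sets with a linear signal above 50 on at least 1 array of the fit were kept. Contrasts were fitted with limma 3.58.1 in R 4.3.3 (lmFit, eBayes) on the 9 Leydig IPs, with Benjamini-Hochberg adjustment over all probe sets tested. Probe sets were called at 1.5-fold or more (2-fold for IP against input) with an adjusted p below 0.05. The interaction used all 24 IPs. The code was tested on simulated data. The number of arrays limits the precision. Replicate numbers were not taken to pair the arrays: the correlation of deviations was 0.013 for acyline with LH 1 h and 0.103 for LH 1 h with LH 4 h, and ranged from -0.166 to 0.129 over all pairs of Leydig IP groups. By rule, the named genes were the probe sets called at LH 1 h against acyline, list members (up to 6 a list that did not pass) and cell type markers. Others, such as Tob1 and Enc1, were chosen after their values were seen, and called genes outside the lists at 4 h are not named. The members and lists were chosen with earlier results of these data known. Promoter windows were from RefSeq (GRCm38.p6), held by 12205 of 15382 tested genes. Alternatives were other filters, scalings, variance models, folds, samples, a replicate block and leaving out each of the 9 Leydig IPs. For the interaction they were the filter, the scaling, the block and leaving out each of the 8 arrays in the contrast. The probe sets with 1 symbol were an alternative chosen after seeing the data.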

Additional observations from a re-analysis of the deposited data

Results flagged for a closer look

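The response to LH in Leydig IPs differed from that to FSH in Sertoli IPs by a test of the difference itself (limma interaction) for 3 genes. The LH value exceeded the FSH value by 2.43 for Nr4a1, 1.59 for Amotl2 and 1.16 for Enc1 on the log2 scale. The count was 0 with the replicate block and 0 without Leydig acyline replicate 2, Sertoli acyline replicate 1 or either FSH 1 h array, and 18 without LH 1 h replicate 2. Enc1 is outside the lists and was named after its values were seen.

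The 4 h and 1 h LH arrays differed, by a test of the later against the earlier time, for 6 listed genes. Each was read from its probe set with the highest mean. A further probe set of the listed gene Pde4d also passed, higher at 4 h by 1.77. Slc16a3 was higher at 4 h by 2.70, and the differences of the others were -2.15 for Gem, -1.25 for Vgll3, -1.13 for Tbx3, -1.03 for Txnip and -0.82 for Kit.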

How the results depend on the processing

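For LH 1 h against acyline, 2 probe sets were higher and 0 lower in the fit reported. The count of higher ones was 0 without the filter on low values, 0 with an ordinary contrast in place of the moderated one, 0 with the replicate block and 0 with only the groups compared, and 4 over probe sets with 1 symbol (chosen after seeing the data). At unadjusted p it was 210 with 85 lower, and with the ordinary contrast 113 with 51 lower. Leaving out 1 array at a time gave 0 to 14. The adjusted p of Sik1 ranged from 0.0016 to 0.77 over the alternatives, and that of Amotl2 from 0.00643 to 0.77.

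For LH 4 h against LH 1 h, the counts higher and lower were 1 and 6 without the filter, 0 and 0 with the ordinary contrast, 36 and 84 with trend and robust variances, 298 and 488 at unadjusted p, 224 and 366 with both of the latter changes to the contrast and the p, 0 and 0 with only the groups compared, and 51 and 95 over probe sets with 1 symbol. With the replicate block they were 1 and 1. At 2-fold 25 were lower. Leaving out 1 array gave 0 to 169 in either direction. The interaction gave 0 with the replicate block and 0 to 18 without 1 array. The causes were not tested.

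Differences near 0 changed sign between fits without 1 array: Hsd3b1 ranged from -0.032 to 0.65, Gem from -0.22 to 0.31, Star from -0.0828 to 0.29, Cyp17a1 from -0.0839 to 0.0762, Scarb1 from -0.0926 to 0.0813 and Aqp2 from -0.35 to 0.28. The number of arrays, 2 in each group, limits what could be detected.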
